A study of Schizosaccharomyces pombe with 4 samples.

Results

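The genes described here encode the proteins of the large (60S) subunit of the cytosolic ribosome in the fission yeast Schizosaccharomyces pombe. They were chosen as nuclear protein-coding genes whose symbol starts with rpl or rpp followed by a digit and whose annotated product is a 60S ribosomal protein or the stalk protein P1 or P2, which gave 81 of 5113 protein-coding genes, 74 named rpl and 7 named rpp. Left out were 3 genes with matching symbols whose products belong to RNase P or RNase MRP, and 2 with an uncertain product, rpl44 and rpl701. Of the members, 31 lie on chromosome I, 30 on II and 20 on III.

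Nascent RNA was taken from nuclei, depleted of polyadenylated and ribosomal RNA, ligated to an adaptor at its 3′ end and sequenced as long cDNA reads, so that a read shows both where its transcript ended and which introns it still held. There were 4 libraries. Wild-type cells in complete medium at 30 °C gave replicate 1, from the h- strain L972, and replicate 2, from the h+ strain SP286, whose prp5 locus carries a KanMx-marked wild-type prp5. Wild-type L972 cells (the shifted wild type below) and cells of the prp2-1 strain (genotype leu1.32 prp2-C387Y), each grown from single colonies at 26 °C and shifted to 37 °C for 2 hours, gave 1 library each. The prp2 gene encodes the large subunit of U2AF, the factor that recognises the 3′ splice site, and the allele is a point change that aligned blocks cannot show, so the reads of prp2 (7, 5, 7 and 4, with libraries in this order) do not check the label. The 2 strains also differ in the leu1.32 marker. Each group at 37 °C is 1 library, so a test on reads below compares 2 libraries and not 2 conditions, and the 30 °C replicates differ in strain as well as in library.

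A ribosome needs most of its proteins in equal numbers and in very large amounts, and the genes for them are among the most transcribed in a growing yeast cell. Many exist in several copies that encode nearly the same protein. Splicing of a yeast transcript can take place while RNA polymerase is still on the gene, or later, and a polymerase that is not released at the poly(A) site gives RNA that runs past the annotated end.

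Introns were present in 43 of the 81 members (53.1%), against 47.8% of all protein-coding genes. A single intron was found in 39 members and 2 introns in rpl3802, rpl3801, rpl22 and rpp102. Of the 47 member introns 46 lie in coding sequence and 1, in rpl39, in the 3′ UTR. Their lengths ran from 44 to 324 nt with a median of 94 nt, against 56 nt over the 5185 introns of protein-coding genes. Members were short genes, with a median of 680 nt against 1807 nt for protein-coding genes outside both ribosomal subunits.

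The introns that the results below turn on are shown here, 5′ to 3′ on the strand of the gene, from the RefSeq ASM294v3 assembly. Capitals mark the first 6 bases (the 5′ splice site), the last 3 bases (the 3′ splice site) and, where present, the last CTAAC or CTGAC, letters that match the core of the fission yeast branch point. They belong to introns whose spliced share is given below.
rpl8 intron 1 (chrII:2045498-2045563, plus strand): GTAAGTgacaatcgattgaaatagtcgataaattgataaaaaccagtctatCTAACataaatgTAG
rpl1202 intron 1 (chrIII:627698-627792, minus strand): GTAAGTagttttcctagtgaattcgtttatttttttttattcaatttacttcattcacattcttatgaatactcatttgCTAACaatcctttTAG
rpl29 intron 1 (chrII:3172350-3172402, plus strand): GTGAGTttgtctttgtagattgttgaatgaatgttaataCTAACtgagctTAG
rpl4101 intron 1 (chrI:5402111-5402162, minus strand): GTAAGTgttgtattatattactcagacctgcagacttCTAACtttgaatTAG
rpl1601 intron 1 (chrII:623953-623998, minus strand): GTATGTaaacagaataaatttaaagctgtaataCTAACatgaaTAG
rpl1602 intron 1 (chrI:4097375-4097429, plus strand): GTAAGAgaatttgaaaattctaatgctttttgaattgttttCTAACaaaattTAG
rpl3802 intron 1 (chrI:1097199-1097247, minus strand): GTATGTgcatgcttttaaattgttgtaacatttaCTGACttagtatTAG

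Splice sites of the members were less varied than those of the genome. GTAAGT opened 29 of 47 member introns (61.7%), against 27.7% of all 5185, and GTATGT another 13. TAG closed 44 of 47 (93.6%), against 68.6% of all. CTAAC or CTGAC, searched on the gene's strand between the splice sites, was present in 37 of 47 (78.7%), against 50.7%.

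Upstream sequence was shared as well. In fission yeast the HomolD box acts as the core promoter element of many ribosomal protein genes, and the HomolE box lies near it. HomolD, searched as CAGTCACA on both strands (reverse complement TGTGACTG) in the 250 nt before the annotated gene start, was present at 52 of 81 members (64.2%), at 61.8% of the 40S genes and at 2.62% of all protein-coding genes. The core of HomolE, CCCTACCC (reverse complement GGGTAGGG), was present at 26 of 81 members (32.1%), at 41.8% of the 40S genes and at 1.55% of all. The 54 HomolD matches lay a median of 51 nt before the gene start, with quartiles at 47 and 57 nt, and 39 of them read forward. The windows of 2 intron-bearing members of high read count are printed with every match of either motif in capitals.
rpl8 (chrII:2045225-2045474, plus strand): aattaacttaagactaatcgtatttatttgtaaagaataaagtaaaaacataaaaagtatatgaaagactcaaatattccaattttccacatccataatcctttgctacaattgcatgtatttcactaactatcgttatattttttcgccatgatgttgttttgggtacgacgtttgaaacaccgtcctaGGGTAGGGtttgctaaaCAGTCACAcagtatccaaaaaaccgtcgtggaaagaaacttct
rpl1202 (chrIII:627824-628073, minus strand): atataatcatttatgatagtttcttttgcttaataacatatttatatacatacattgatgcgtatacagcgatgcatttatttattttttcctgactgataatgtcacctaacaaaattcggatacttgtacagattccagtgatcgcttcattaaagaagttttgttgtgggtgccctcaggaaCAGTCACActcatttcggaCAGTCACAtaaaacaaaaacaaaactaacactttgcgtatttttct
The window of rpl8 held both motifs, which do not overlap there, and that of rpl1202 held HomolD at 2 places. A match is a run of letters and not a measured binding site. Only exact matches were counted, and near matches, such as cagtcacg before rpl13 and rpp0, were left out.

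The libraries held 123756, 45318, 32176 and 33746 aligned reads (30 °C replicates 1 and 2, shifted wild type, prp2-1, an order kept below). Reads on the strand of a protein-coding gene numbered 62207, 32514, 26118 and 25276. Both 37 °C libraries came from the same 6 sequencing cells, as read names show, and 104 of 743 member reads of the wild type carried a name that also occurs in the prp2-1 file. For prp2-1 that was 87 of 626, so results at 37 °C are given without repeated names where that changed them. The 30 °C replicates came from 6 and 3 other cells, so between temperatures and between these replicates, library and cell cannot be told apart. Cells are parts of a library and not replicates, so counts over cells below do not measure a spread between cultures. All intervals reflect counting alone, as amplified copies and separate molecules look alike in these files.

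Large-subunit genes took a smaller share of the reads at 37 °C than at 30 °C. They received 4978, 1626, 743 and 626 reads, which is 8.002%, 5.00%, 2.84% and 2.48% of the reads of protein-coding genes. At 30 °C they averaged 6.502% ± 2.12 (SD, n = 2). Both 37 °C libraries lay below both replicates, and the replicates themselves differed by more than the 37 °C libraries did. The 40S genes were ordered alike, at 6.08%, 4.10%, 2.24% and 2.24%. Because these are shares of reads, a change in the total amount of nascent RNA could not be seen, and the libraries also differed in the length of reads, with a median of 332, 464.5, 629 and 528 aligned nt in member reads. The part of read length in the shares was not tested.

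**Figure D1:**
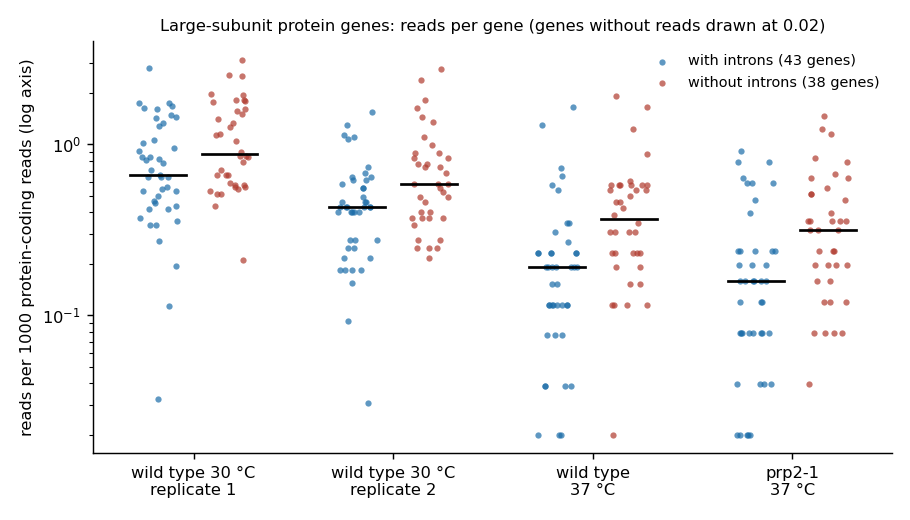
Reads per 1000 protein-coding reads (log axis) for each large-subunit gene in the 4 libraries, split into 43 genes with introns and 38 without; points are genes, lines are medians, and genes without reads are drawn at 0.02. The median over the 81 genes was 0.804 and 0.461 in the 30 °C replicates, 0.230 in the shifted wild type and 0.198 in prp2-1.

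All 81 members had reads in both 30 °C libraries, 77 in the shifted wild type and 76 in prp2-1. Called here means at least 2-fold apart in share of reads, among genes with at least 20 reads in the pair of libraries together, with no test. From replicate 1 to the shifted wild type 63 of 77 members were at least 2-fold lower, against 19.7% of all genes tested, and 0 of 77 at least 2-fold higher, against 16.7%. The median log2 ratio was -1.69 for members. Over all genes it was 0.17, a shift of the scale against which members should be read. From replicate 2, which shares its 37 °C partner with that comparison, 22 of 45 members were lower (16.5% of all genes) and 2 higher (15.7%), with a median log2 ratio of -0.94 against 0.10 over all genes. Replicate 2 itself was 2-fold lower than replicate 1 at 25 of 78 members (13.8% of all genes) and higher at 0 of 78 (12.8%), a distance seen within 1 temperature. Between prp2-1 and the shifted wild type 4 of 27 members were lower (8.47% of all genes) and 0 of 27 higher (9.7%), and without reads of repeated names 0 members were lower.

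Read counts were uneven among members. The largest at 30 °C was rpl3202, which encodes eL32, with 193, 90, 32 and 31 reads. Next came rpl902, the gene for L9, with 157, 77, 43 and 37 reads, and rpl8, the gene for eL8, with 174, 50, 43 and 20. Those 3 genes were followed by rpl2002 (155, 47, 23 and 16 reads), rpl101 (122, 53, 15 and 13) and rpl6 (111, 59, 11 and 16), which encode eL20, uL1 of the mobile L1 stalk, and eL6.

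Per 1000 reads, rpl3202 stood at 3.10 and 2.77 at 30 °C and at 1.23 in both 37 °C libraries, without overlap between temperatures. The 2 members at least 2-fold higher in the shifted wild type than in replicate 2 were rpl302 and rpl402, named here because of their values. They encode L3 and uL4, proteins that reach towards the peptidyl transferase centre and the exit tunnel. rpl402 had 93, 29, 50 and 29 reads, or a log2 ratio of 1.09 to replicate 2 and 0.36 to replicate 1, and rpl302 had 36, 8, 15 and 6 reads, or 1.18 and 0.02. At the other end rpl4102, a gene for the very short protein eL41, had 92 and 37 reads at 30 °C against 1 and 3 at 37 °C. rpl22 had 21 and 13 reads at 30 °C and 0 in both 37 °C libraries, where a count of 0 allows up to 0.115 and 0.119 reads per 1000.

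The 6 genes for P1 and P2 each had lower levels in both 37 °C libraries than in both 30 °C libraries. Large-subunit genes as a class also took a smaller share at 37 °C. How many other members were ordered this way was not counted, so the order does not set the stalk genes apart. For rpp101 it rests on few reads, with 6 in replicate 2 and 4 in prp2-1. Per 1000 reads these are 0.185 (interval 0.0677 to 0.402) and 0.158 (0.0431 to 0.405), which overlap. The stalk is a flexible arm of uL10 (rpp0) and pairs of P1 and P2 that recruits translation factors. Per kilobase and 1000 reads, rpp202 stood at 3.36, 1.03, 0.481 and 0.414, rpp102 at 1.96, 1.09, 0.338 and 0.349, and rpp201 at 1.70, 0.499, 0.233 and 0.321. rpp202 was thus the highest of the 6 in replicate 1 and rpp102 in replicate 2. rpp101 had 1.07, 0.236, 0.147 and 0.202, rpp103 had 1.06, 0.661, 0.0633 and 0.131, and rpp203 had 1.23, 0.412, 0.147 and 0.0758. Each P1 or P2 gene had at most 6 reads in a 37 °C library, so their order at 37 °C could not be resolved. rpp0 stood at 1.21, 0.446, 0.527 and 0.573, but 74, 4, 18 and 18 of its 104, 20, 19 and 20 reads started inside its intron.

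Factors that assemble and export the 60S subunit were counted for comparison. Of 40 factors listed, 37 were matched, and they took 40.4, 31.6, 9.65 and 10.7 reads per 1000. At 30 °C most of that was nog2, within which the snoRNA gene snR191 is annotated, and without nog2 the values were 6.86, 7.94, 7.31 and 6.61. Among factors with at least 20 reads in the pair, 2 of 11 were at least 2-fold lower in the shifted wild type than in replicate 1, against 19.7% of all genes. These were nog2 and rlp7. Another 2 of 11 were higher, against 16.7%. A list of 11 heat shock genes took 10.7, 8.27, 10.8 and 20.5 reads per 1000, so the shifted wild type lay next to replicate 1 and prp2-1 above it.

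The next question was how often an intron had left a read that crossed it. Members were spliced in 1508 of 1770 crossings in replicate 1, or 85.2% (95% Wilson interval 83.5 to 86.8). In replicate 2 it was 305 of 564, or 54.1% (49.95 to 58.1), which averages with replicate 1 to 69.6% ± 22.0 (SD, n = 2). The shifted wild type had 147 of 254, or 57.9% (51.7 to 63.8). For prp2-1 it was 100 of 191, or 52.4% (45.3 to 59.3). Replicate 1 stood apart, and the other 3 libraries had overlapping intervals. Introns of genes outside both subunits were spliced in 62.8%, 48.4%, 52.0% and 30.2%, and those of 40S genes in 84.8%, 44.2%, 53.4% and 47.9%. Members exceeded the other genes by 22.4 percentage points in replicate 1 (95% Newcombe interval 20.5 to 24.2), by 5.66 in replicate 2 (1.41 to 9.87), by 5.91 among shifted wild-type reads (-0.302 to 11.9) and by 22.2 among those of prp2-1 (15.1 to 29.2).

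**Figure D2:**
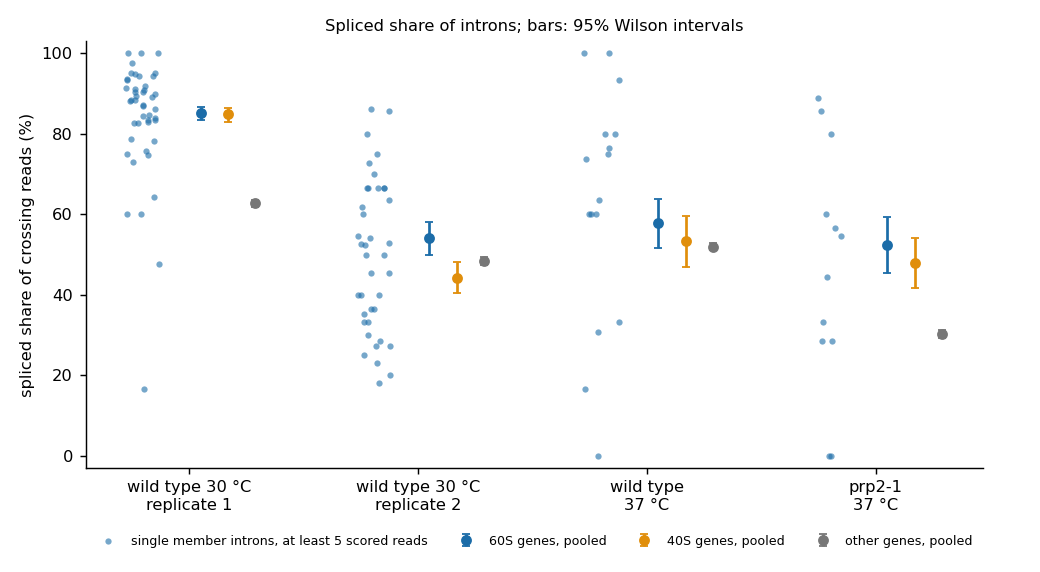
Spliced share (%) of reads crossing an intron, by library. Small points are single introns of large-subunit genes with at least 5 scored reads (45, 39, 16 and 12 introns); large points with bars are pooled shares with 95% Wilson intervals for 60S, 40S and other genes. The 60S share was 85.2% in replicate 1 and between 52.4% and 57.9% in the other libraries, while that of other genes was lowest in prp2-1, at 30.2%.

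In the comparison of prp2-1 with the shifted wild type, which asks how far splicing falls when U2AF is impaired, the interval for members spanned 1 over all reads. Spliced odds in prp2-1 came to 0.913 times the wild-type odds (95% interval 0.591 to 1.41, Mantel-Haenszel over 35 introns), and those of other genes 0.347 times (0.322 to 0.374). The ratio of these odds ratios was 2.63, with an adjusted p of 5.93e-05 in a two-sided normal test on the log scale (Benjamini-Hochberg over 24 such ratios). The result depended on which reads were counted. Among reads that ended within the gene, 130 of 167 wild-type crossings of members were spliced (77.8%) and 89 of 154 prp2-1 crossings (57.8%), an odds ratio of 0.406 (0.233 to 0.706). Other genes then stood at 0.328 (0.303 to 0.354), and the ratio to them was 1.24 with an adjusted p of 0.565. With gene and end position as strata, a fit added after the values were seen, the member odds ratio was 0.571 (0.346 to 0.943). Against 40S genes the ratio was 1.15 over all reads, with an adjusted p of 0.704.

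At the minimum of 10 scored reads per library, 4 member introns could be tested. With Fisher's exact test 0 of 4 were called at an adjusted p under 0.05, against 13.2% of the 68 introns tested. At an unadjusted p under 0.05 it was 0 of 4, against 23.5%. The intron of rpl1602, a uL13 gene, had been removed from 14 of 15 wild-type reads and 12 of 14 of prp2-1. That of rpl1202, whose product uL11 sits at the base of the stalk, was spliced in 21 of 33 and 13 of 23 reads. That of rpl8 was spliced in 31 of 42 and 16 of 18, and that of rpl1802 (eL18) in 4 of 13 and 5 of 15. The differences ran from -7.62 to 15.1 percentage points, and the interval of each spanned 0, so a difference was not detectable at this depth. Within the 6 shared sequencing cells the pooled member share was lower in prp2-1 in 5 of 6 cells, with differences from -23.5 to 11.8 points. For other genes it was lower in 6 of 6, from -24.0 to -19.3 points.

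**Figure D3:**
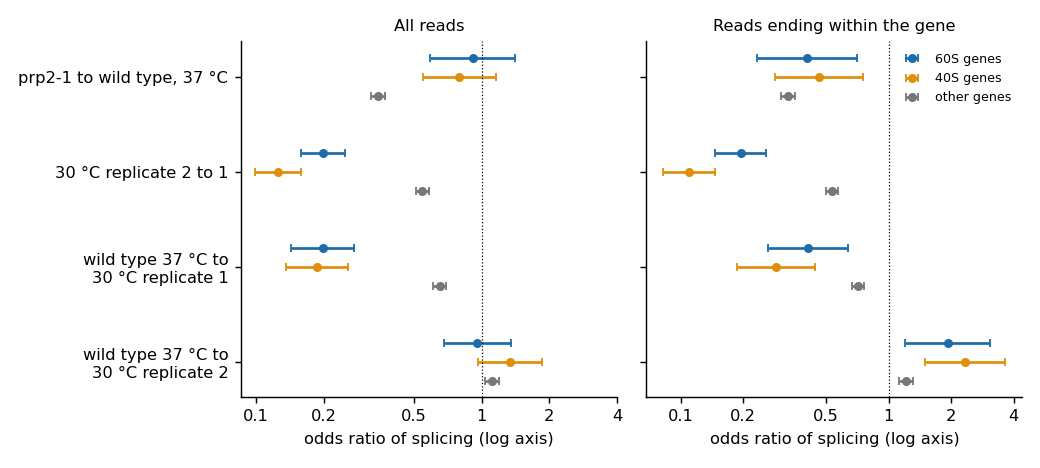
Mantel-Haenszel odds ratios of splicing (log axis) for 60S, 40S and other genes in 4 comparisons of libraries, over all reads (left) and over reads ending within the gene (right); bars are 95% intervals and the dotted line is 1. For prp2-1 against the wild type the 60S value moved from 0.913 to 0.406, next to 0.328 for other genes.

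The 30 °C replicates differed at member introns. The odds of splicing in replicate 2 were 0.198 times those in replicate 1 (95% interval 0.157 to 0.248), against 0.545 (0.510 to 0.582) for other genes. The ratio was 0.363 with an adjusted p of 1.22e-15 in the same normal test. The 40S genes stood at 0.125 (0.0990 to 0.158), and the ratio of members to them was 1.58 with an adjusted p of 0.0150. Restricting to reads that ended within the gene left the member value at 0.194. Over the 6 sequencing cells of replicate 1 the member share ran from 82.6% to 92.9%, and over the 3 of replicate 2 from 43.8% to 67.3%, without overlap. This is a spread within each library and not between cultures.

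By Fisher's exact test 15 of 24 member introns were called between the replicates, all lower in replicate 2, against 35.5% of the 107 introns tested, and all 24 were lower whether called or not. The median difference was -32.1 points for members and -23.7 for all introns tested. Intron 1 of rpl3802, which encodes eL38, was spliced in 24 of 29 reads in replicate 1 and 3 of 13 in replicate 2 (adjusted p = 0.00283, Fisher's exact test). Its intron 2 was spliced in 15 of 16 and 3 of 10.

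Both genes for uL23, the protein at the tunnel exit that docks the signal recognition particle, were among the calls. rpl2501 was spliced in 42 of 43 and 10 of 15 reads and rpl2502 in 19 of 21 and 3 of 11. rpl35, whose protein also lies at the tunnel exit, was spliced in 85 of 93 and 9 of 17 reads (adjusted p = 0.00283, Fisher's exact test). As annotated, the same-strand noncoding RNA SPNCRNA.1103 overlaps the 5′ end of rpl35 and does not reach its intron. The uL13 gene rpl1601 was spliced in 38 of 46 and 3 of 11 reads, and its copy rpl1602, not called, in 41 of 46 and 12 of 18. The calls also held rpl4101 (77 of 87 and 10 of 19), rpl2702 (39 of 41 and 13 of 21), rpl3601 (20 of 21 and 5 of 11), rpp102 intron 1 (53 of 71 and 6 of 17), rpl29 (78 of 99 and 21 of 40) and rpl1202 (88 of 98 and 22 of 33).

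At least 20 scored reads in each replicate were held by 6 member introns. Their mean spliced shares, from the lowest, were 64.9% at rpl4102, 65.6% at rpl29, whose intron opens with GTGAGT, and 76.8% at rpl1801, then 78.2% at rpl1202, 78.5% at rpl2702 and 89.1% at rpl8. The order differed between replicates, since rpl2702 had 95.1% in replicate 1 and 61.9% in replicate 2, and rpl1801 had 86.8% and 66.7%. The intron of rpl8 was spliced in 92.0% and 86.1% of reads, the smallest gap between replicates among these 6.

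Member introns of the shifted wild type were spliced less often than those of replicate 1 and not measurably less than those of replicate 2. Set against replicate 1, also L972, the odds ratio at member introns was 0.197 (95% interval 0.143 to 0.272) and 0.652 for other genes, and with reads ending within the gene these were 0.409 (0.262 to 0.640) and 0.713. The 40S introns stood at 0.186 (0.136 to 0.256) over all reads. The ratio of members to them was 1.06, with an adjusted p of 0.811 in the normal test. Against replicate 2 it was 0.959 (0.681 to 1.35), and 1.92 (1.20 to 3.08) with reads ending within the gene. The direction of the difference between temperatures at member introns therefore depended, for reads ending within the gene, on the 30 °C replicate used. By Fisher's exact test 1 of 5 member introns was called against replicate 1, against 4.17% of the 96 introns tested, and 2 of 5 had an unadjusted p under 0.05, against 19.8%. The call was rpl1202, spliced in 88 of 98 reads in replicate 1 and 21 of 33 in the shifted wild type (adjusted p = 0.0481, Fisher's exact test).

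The 4 members with 2 introns gave few reads across both. The pair shared 1 state, both spliced or both unspliced, in 72 of 76 reads of replicate 1, 26 of 29 of replicate 2, 5 of 6 of the shifted wild type and 3 of 5 of prp2-1. For adjacent introns of all genes outside the large subunit, 86.3%, 87.7%, 84.2% and 81.3% of crossings shared 1 state, so agreement is not particular to members. In replicate 1 rpl3801 had 23 reads with both spliced and 2 with neither, and rpp102 had 21, 3 and 3 with the second intron alone spliced. In replicate 2 rpl3802 had 3 reads with both spliced and 7 with neither. An odds ratio could not be computed over these pairs in any library.

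The 3′ ends of member reads also differed between libraries. A read was counted as past the gene when its 3′ end lay over 100 nt beyond the annotated end. That held for 209 of 4978 member reads in replicate 1, or 4.20% (95% Wilson interval 3.68 to 4.79), and 205 of 1626 in replicate 2, or 12.6% (11.1 to 14.3). In the shifted wild type it was 174 of 743, or 23.4% (20.5 to 26.6), and in prp2-1 59 of 626, or 9.42% (7.38 to 11.97). Other genes stood at 3.99%, 4.67%, 7.06% and 5.76%, and 40S genes at 3.01%, 11.3%, 17.6% and 6.70%.

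The comparison with other genes, whose median length is larger, turned with the denominator. Over reads that reached the last 100 nt of the gene or went beyond it, 15.5%, 31.2%, 52.1% and 26.6% of member reads ended past the gene. For other genes the shares were 41.6%, 46.1%, 49.5% and 43.3%. Members were thus below other genes in 3 libraries by this count, with intervals that did not overlap, and overlapped them in the shifted wild type. Among members the 4 libraries kept their order by this count, but with ends over 200 nt past the gene replicate 2 (5.60%) lay below prp2-1 (6.71%).

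**Figure D4:**
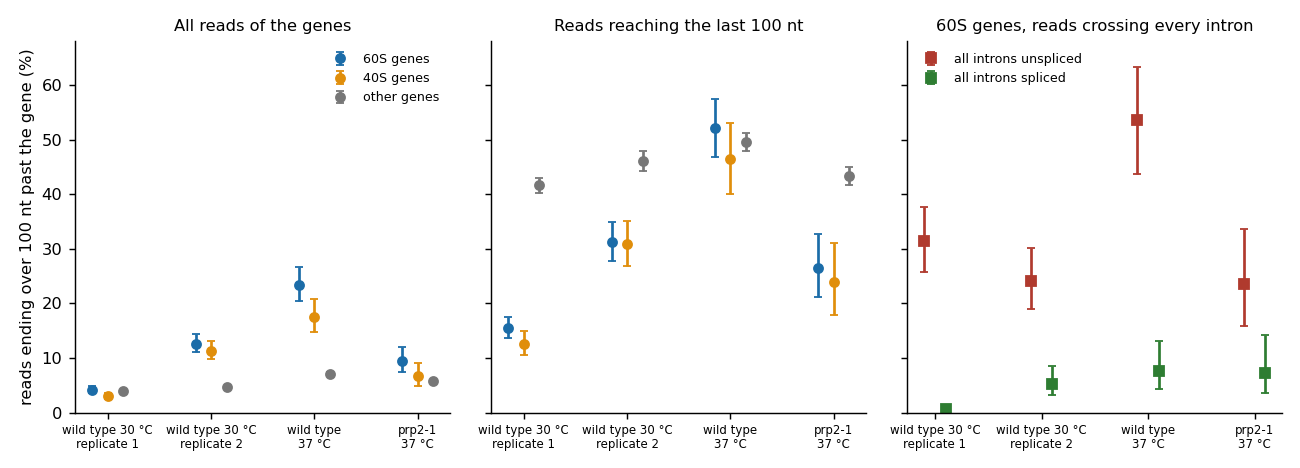
Share of reads (%) whose 3′ end lay over 100 nt past the annotated gene end, by library, with 95% Wilson intervals. Left, all reads of 60S, 40S and other genes; middle, reads that reached the last 100 nt of the gene; right, reads of 60S genes that crossed every intron, by splicing state. In the shifted wild type 53.7% of unspliced and 7.59% of spliced reads ended past the gene.

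Fewer member reads ended past the gene in prp2-1 than in the shifted wild type. Stratified by gene, the prp2-1 odds were 0.312 times the wild-type odds (95% interval 0.219 to 0.443), against 0.741 (0.677 to 0.810) for other genes, and the ratio of 0.421 had an adjusted p of 7.44e-06 (two-sided normal test on the log scale, Benjamini-Hochberg over 8). The 40S genes stood at 0.365 (0.238 to 0.559), an interval that overlaps that of members, so the fall is not particular to the large subunit. Over reads that reached the last 100 nt the odds ratio was 0.306 (0.198 to 0.472), and without repeated read names 0.336 (0.230 to 0.491). In 6 of 6 shared sequencing cells prp2-1 had the lower share of member reads, by differences from -19.2 to -4.51 points. For other genes it was also lower in 6 of 6, by differences from -1.90 to -0.387 points. Of 73 members with reads in both libraries the share was lower in 48, higher in 11 and equal in 14. The same count was not made for other genes, whose odds also fell, so it does not set members apart. At least 10 reads were held by 25 members in the shifted wild type and 22 in prp2-1, so many of these directions rest on few reads. The comparison of ends past the gene between these libraries was added after the values were seen.

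Members with and without introns both fell. Members with introns had an odds ratio of 0.324 (0.185 to 0.565) and members without introns 0.304 (0.194 to 0.478), and the ratio between them was 1.06 with an adjusted p of 0.960. In the shifted wild type 24.0% of reads of intron-bearing members and 23.1% of those of intronless members ended past the gene. In prp2-1 it was 11.9% and 7.85%.

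From replicate 1 to the shifted wild type the odds of ending past a member were 9.49 times as high (7.40 to 12.2), and 2.21 times for other genes. From replicate 2 the factor was 2.62 (2.04 to 3.35), and 2.20 for other genes, with a ratio of 1.19 and an adjusted p of 0.384 in the normal test. Between replicates 1 and 2 it was 3.29 (2.67 to 4.06), and 1.13 for other genes, with a ratio of 2.91 and an adjusted p of 5.06e-20.

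Single members followed the pooled order in part. rpl3202 had 6 of 193, 16 of 90, 9 of 32 and 1 of 31 reads past its end, and rpl1202 had 3 of 109, 7 of 36, 14 of 34 and 2 of 23. rpl3401, the gene for L34, had 10 of 110, 9 of 44, 5 of 12 and 3 of 13. rpl29 did not show the drop in prp2-1, with 13 of 101, 13 of 42, 4 of 9 and 7 of 15 reads. Reads past the gene reached a median of 228, 183, 320 and 248 nt beyond the end over all members.

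Reads that ran past a member were mostly unspliced. Of reads that crossed every intron of their gene and had lost none, 71 of 226 in replicate 1 ended past the gene (31.4%), 53 of 220 in replicate 2 (24.1%), 51 of 95 in the shifted wild type (53.7%) and 20 of 85 in prp2-1 (23.5%). Of those that had lost all, it was 8 of 1378 (0.581%), 15 of 282 (5.32%), 11 of 145 (7.59%) and 7 of 96 (7.29%). Stratified by gene, the odds ratios of unspliced to spliced reads were 85.9 (95% interval 35.4 to 209), 5.61 (2.87 to 10.96), 17.8 (5.91 to 53.4) and 3.30 (1.01 to 10.8). The prp2-1 value did not pass over reads reaching the last 100 nt, without repeated names, or with ends over 50 or over 200 nt past the gene, and that of replicate 2 was 2.20 and did not pass at 200 nt. The 17.8 of the shifted wild type was 9.82 over reads reaching the last 100 nt and 11.6 without repeated names, and the 85.9 of replicate 1 was 39.5 at 200 nt. For other genes the odds ratios were 5.13, 0.910, 2.52 and 1.72, and for 40S genes 75.6, 1.60, 20.3 and 5.13. The ratio between members and other genes was 16.8 in replicate 1, 6.17 in replicate 2 and 7.05 in the shifted wild type, with an adjusted p of 2.11e-06, of 2.88e-04 and of 0.00325 (two-sided normal test over 8 ratios). In prp2-1 it was 1.92, with an adjusted p of 0.565. Against 40S genes it was 1.14, 3.51, 0.878 and 0.643, and passed in replicate 2 alone, with an adjusted p of 0.00734 there and of 0.887, 0.887 and 0.826 in replicate 1, the shifted wild type and prp2-1.

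Most members belong to sets of near copies. Symbols that differ in their last 2 digits gave 31 sets with 66 genes, 27 of 2 copies and 4 of 3. Introns were present in all copies of 14 sets and in none of 15, and 2 sets were mixed. Coding sequences of copies were identical at 66.1% to 99.6% of aligned positions, with a median of 85.5% over 39 pairs.

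In the first mixed set rpl101 has no intron and rpl102 has 1, and both encode uL1. Per kilobase and 1000 reads, rpl101 stood at 2.51, 2.08, 0.734 and 0.657 and rpl102 at 0.262, 0.177 and 0.184, so the intronless copy was higher in these 3 libraries. In prp2-1 rpl102 had 0 reads, which allows up to 0.114, and rpl101 was above that. The intron of rpl102 was spliced in 1 of 6, 0 of 4 and 1 of 3 reads, with no crossing in prp2-1.

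In the second set rpl1201 has no intron and rpl1202 has 1. Here the copy with the intron was higher in each library, at 2.30, 1.45, 1.71 and 1.19 against 1.53, 1.38, 0.549 and 0.284 per kilobase and 1000 reads. The coding sequences of this pair are identical at 496 of 498 positions, so a spliced read of rpl1202 and a read of rpl1201 may be hard to place, and the counts of the 2 copies, with the spliced share of rpl1202, are uncertain. In the shifted wild type 14 of 34 reads of rpl1202 and 6 of 8 of rpl1201 ended past the gene, and in prp2-1 2 of 23 and 0 of 4. rpl1001 and rpl1002 (97.9% identical) and rpl301 and rpl302 (96.3%) carry the same reservation.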

How the data were processed

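The deposited files hold 1 line per aligned read, with its blocks, strand and name, and are named as filtered for poly(A). Per the submitters' processing notes cutadapt 1.8 was among the tools. The aligner and genome build are not given in the sources used here. The deposited score column holds 40 throughout, is not normalised in any way the labels mention, and went unused. The other deposited values are block positions. RefSeq ASM294v3 annotation was used because 88.7% to 94.0% of gaps of at least 20 nt matched an annotated intron exactly.

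A read was assigned to the protein-coding gene on its strand with the largest overlap of at least 20 nt. At an intron it was scored if it reached 10 nt past both sides, as spliced if a gap lay within 5 nt of both sites and as unspliced if at least 90% was covered with no gap of 20 nt or more. Tests were Fisher's exact test where both libraries held 10 or more scored reads (two-sided, Benjamini-Hochberg over all introns tested, threshold 0.05) and Mantel-Haenszel odds ratios with 95% intervals. Ratios of odds ratios had a two-sided normal test on the log scale. The log2 ratios of reads per gene carry a pseudocount of 0.5. Zeros are given with a floor of 3 counts. Python 3.11.15, scipy 1.17.1 and Biopython 1.88 were used, and splicing calls and statistics were checked against simulated reads. The labels do not say that libraries of 1 group came from separate cultures beyond their strains, so the spread at 30 °C may be partly technical.

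Members, lists and tests were chosen with earlier results of these data known. Named were the 6 members with the most reads at 30 °C, the deepest introns at 37 °C, up to 12 introns called by Fisher's test, the highest and lowest introns at 30 °C, copy sets that differ in introns, the 4 members with the most reads past the gene, and the stalk genes. The heat shock genes were a check list. Alternatives changed gap tolerance, reach, read minimum, repeated reads and names, end position, the past-gene distance, gene assignment and replicates. The test of ends past the gene between libraries, the reads reaching the last 100 nt, the strata of gene and end position, the omission of reads starting in introns, the lists without nog2 and the addition of rpl44 and rpl701 were chosen after seeing the data.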

Additional observations from a re-analysis of the deposited data

How the results depend on the processing

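Alternative settings gave 242 values for 33 results, and 197 of them were counted as unchanged. For an odds ratio, or a ratio of them, that meant the same direction and side of the threshold. A share had to stay within the interval or SD of its main value, and a count within a set factor. Of the rest, 31 shares or counts moved, and among the ratios 7 became weaker, 2 stronger and 5 reversed. No paired analysis was possible because the groups compared share fewer than 2 replicate numbers. The cause of the changes below was not tested. Counting reads that end within the gene moved the spliced share to 90.7% and 65.7% in the 30 °C replicates and to 77.8% in the shifted wild type. Over all reads, the median over introns was 88.3% in replicate 1 and 73.8% in the shifted wild type. Within the gene the odds ratio of splicing of prp2-1 to wild type passed its threshold at 0.406, and at 0.571 with gene and end as strata. That of the shifted wild type to replicate 2 turned to 1.92 within the gene, 1.58 with those strata and 1.02 at a reach of 20 nt, and its ratio to other genes turned to 1.58 and 1.38.

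With a minimum of 20 scored reads, 5 of 6 member introns were called between the replicates, against 15 of all 20 introns tested. Against replicate 1 the shifted wild type then had 2 calls of 2 (5 of 13 over all introns). It had 2 of 4 without repeated read names (5 of 69) and 2 of 6 with rpl44 and rpl701 (4 of 96). At 200 nt past the gene the shares were 2.45%, 5.60%, 17.5% and 6.71%, at 50 nt 5.04% and 16.4% in the 30 °C replicates, and over reads reaching the last 100 nt 15.5%, 31.2%, 52.1% and 26.6%. With rpl44 and rpl701 added the shifted wild type stood at 19.1%. The odds ratio of unspliced to spliced reads no longer passed at 200 nt in replicate 2 (2.20), nor in prp2-1 at 200 nt (4.78), at 50 nt (2.80), over reads reaching the end (3.43) or without repeated names (2.96).

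Members at least 2-fold lower numbered 0 of 17 in prp2-1 without repeated names (6.21% of all genes), and 13 of 27 in the shifted wild type against replicate 2 with reads given to the gene of their 5′ end (16.9% of all genes). By that rule members took 7.24%, 4.53%, 2.64% and 2.16% of reads. They took 8.57%, 3.54% and 3.13% with rpl44 and rpl701 in replicate 1, the shifted wild type and prp2-1, 8.46% in replicate 1 without reads starting in introns, and 2.28% in prp2-1 without repeated names. Depth limits single introns most at 37 °C, where 5 and 6 member introns reached 10 scored reads.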

Other observations

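Outside replicate 2, most reads counted for rpp0 were not reads of its coding exons. In replicate 2, 14 of 20 reads started upstream of its intron. The 4 that started inside it shared no exact start, and 3 of them lay within 5 nt of position 6 of the intron. Of 104, 20, 19 and 20 reads in the 30 °C replicates 1 and 2, the 37 °C wild type and prp2-1, 74, 4, 18 and 18 started inside the annotated 324-nt intron. In replicate 1 the commonest start lay 179 nt into the intron, with 65 reads within 5 nt of it, and 72 of the 74 reads also ended inside the intron. In the 37 °C wild type 18 of 18 lay within 5 nt of the same place, and in prp2-1 17 of 18 lay within 5 nt of position 180, and all of these ended inside the intron. No noncoding gene is annotated there on the strand of rpp0. Reads starting upstream of the intron numbered 29, 14, 1 and 1, so the reads of rpp0 at 37 °C given above hold little of the host transcript. Across the 43 members with introns a median of 77.0% of reads crossed the first intron, and rpp0 was lowest at 8.59%. The first exon of rpp0, at 810 nt, is also the longest of the 43. Median member reads were 332 to 629 aligned nt, and the part of exon length in the 8.59% was not tested. This gene was picked because of its values.

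Reads whose 3′ end lay within 1 nt of the last base before an intron, where a first step of splicing would leave an end, numbered 45 of 2259 reads of intron-bearing members in replicate 1 (1.99%), 11 of 683 in replicate 2 (1.61%), 1 of 288 in the 37 °C wild type (0.347%) and 0 of 244 in prp2-1, which allows a share of up to 1.23%. Reads that ended inside an intron made up 7.30%, 6.88%, 7.99% and 14.3%. Without rpp0, whose intron is described above, they made up 4.13%, 6.49%, 1.86% and 7.14%.

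The uncertain member rpl701, left out above, had 316, 57, 181 and 166 reads. Its intron was spliced in 99 of 106 reads in replicate 1, 19 of 40 in replicate 2, 13 of 25 in the 37 °C wild type and 11 of 24 in prp2-1.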
